A study of Mus musculus with 4 samples.

Results

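Of the 11947 Foxr2 binding sites shared by both replicates of a Foxr2 p53LOF neurosphere line, 589 (4.93%) lay at bidirectional promoters, where the starts of 2 protein-coding genes face away from each other. Members were selected on measured values and on position. A site comprises the bases that peaks of both replicates share, each peak with a fold enrichment above 6, a −log10 q above 6, a length under 10000 bp and no overlap of 10 bp or more with a peak of the control line. It is a member where it reaches within 1 kb of both starts of a divergent pair, a minus-strand gene whose annotated start lies at or to the left of that of a plus-strand gene, 0 to 1000 bp apart (GENCODE M21 on mm10). The annotation held 755 such pairs with 1489 genes. Of these pairs, 609 had a member site, and the 589 sites served 1199 genes, with 20 sites serving 2 pairs each. The 2 pairs of a site usually share a gene, as at Rabgap1, which starts 108 bp from Zbtb6 and 144 bp from Zbtb26 under one site with folds of 11.9 and 9.20.

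Binding was profiled by CUT&RUN, in which a nuclease tethered to an antibody cuts free the DNA around its target, here the V5 tag. The Foxr2_p53LOF line came from a C57BL/6J brain tumor raised by in utero electroporation, with a CAG promoter driving FOXR2 with a V5 tag from a piggyBac vector and a Trp53 guide RNA with Cas9 for loss of function of p53 (p53LOF). It was profiled in 2 libraries, replicates 1 and 2. Another 2 libraries are of the V5_control, a line of the same strain from a separate electroporation model with the genotype H3.3G34R and no V5 tag. All values are thus for overexpressed, tagged Foxr2 in a single line, and the peak lists carry no expression with which to check the cell type.

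A bidirectional promoter drives a pair of genes outwards from a short shared stretch of DNA. Such promoters are common in mammalian genomes, usually lie in CpG islands, mostly lack a TATA box and often serve genes that nearly every cell uses, among them genes of DNA repair, RNA processing and mitochondria. Binding sites for factors such as NFY, ETS proteins, NRF1 and YY1 are well known in promoters of this kind.

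The DNA between the starts is shown for 15 members to let the promoters themselves be read. They are the 12 strongest members by the lower of their 2 folds, 2 textbook pairs that include the electroporation target Trp53, and a weak repair pair. Sequences are from the GRCm38.p6 genome, read 5′ to 3′ on the plus strand, so that the minus-strand gene starts to the left and the plus-strand gene to the right. Capitals mark exact matches, on either strand, to CCAAT (NFY), CCGGAAG (ETS), CGCATGCG (NRF1) or AAGATGG (YY1). Stretches of 300 bases are part of a longer interval, the others are whole, and none overlaps an annotated exon of a protein-coding gene.

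Cbx5-Hnrnpa1, chr15:103239973-103240272: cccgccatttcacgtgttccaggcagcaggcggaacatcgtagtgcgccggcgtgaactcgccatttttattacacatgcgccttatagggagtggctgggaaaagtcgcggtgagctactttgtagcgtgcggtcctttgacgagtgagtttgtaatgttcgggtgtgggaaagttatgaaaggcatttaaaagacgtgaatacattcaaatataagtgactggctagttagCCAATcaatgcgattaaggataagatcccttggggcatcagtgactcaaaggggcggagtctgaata

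Tsacc-Cct3, chr3:88297000-88297115: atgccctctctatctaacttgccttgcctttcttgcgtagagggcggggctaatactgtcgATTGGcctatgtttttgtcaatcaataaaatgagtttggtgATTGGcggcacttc

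Usp5-Cdca3, chr6:124829485-124829546: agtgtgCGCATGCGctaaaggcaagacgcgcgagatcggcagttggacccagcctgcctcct

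Zranb3-R3hdm1, chr1:128103048-128103300: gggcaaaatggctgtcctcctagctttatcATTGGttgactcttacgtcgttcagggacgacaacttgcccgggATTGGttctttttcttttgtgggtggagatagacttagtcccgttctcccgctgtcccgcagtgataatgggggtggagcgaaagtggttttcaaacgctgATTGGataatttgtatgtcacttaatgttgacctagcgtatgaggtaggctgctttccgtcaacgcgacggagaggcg

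Ccdc47-Ddx42, chr11:106216507-106216806: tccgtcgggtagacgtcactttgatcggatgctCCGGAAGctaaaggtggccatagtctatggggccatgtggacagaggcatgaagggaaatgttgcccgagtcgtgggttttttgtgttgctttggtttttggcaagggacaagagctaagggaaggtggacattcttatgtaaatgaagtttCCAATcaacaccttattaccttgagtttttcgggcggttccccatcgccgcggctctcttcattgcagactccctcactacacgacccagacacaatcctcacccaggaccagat

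Brca1-Nbr1, chr11:101551956-101552148: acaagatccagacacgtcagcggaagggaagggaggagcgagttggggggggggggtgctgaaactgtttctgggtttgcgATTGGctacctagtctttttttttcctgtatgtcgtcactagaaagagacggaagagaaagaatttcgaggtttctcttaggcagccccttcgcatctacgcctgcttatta

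Lamtor2-Ubqln4, chr3:88553112-88553411: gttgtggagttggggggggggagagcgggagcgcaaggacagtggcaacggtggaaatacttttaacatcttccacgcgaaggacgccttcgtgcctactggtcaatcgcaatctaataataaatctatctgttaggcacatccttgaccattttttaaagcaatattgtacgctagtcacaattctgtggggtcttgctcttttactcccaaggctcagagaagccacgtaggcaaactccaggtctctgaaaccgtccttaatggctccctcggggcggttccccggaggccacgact

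Fiz1-Gm44973, chr7:5014832-5015131: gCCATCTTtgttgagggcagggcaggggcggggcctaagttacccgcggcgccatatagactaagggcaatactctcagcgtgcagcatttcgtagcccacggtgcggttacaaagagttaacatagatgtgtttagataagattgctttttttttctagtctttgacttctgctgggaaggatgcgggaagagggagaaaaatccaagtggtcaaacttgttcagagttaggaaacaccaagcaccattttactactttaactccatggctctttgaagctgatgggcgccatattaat

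Hdlbp-Sept2, chr1:93478816-93478963: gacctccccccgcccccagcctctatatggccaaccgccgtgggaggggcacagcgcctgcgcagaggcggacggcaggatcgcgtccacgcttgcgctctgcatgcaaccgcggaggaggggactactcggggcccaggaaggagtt

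Nlgn2-Tmem256, chr11:69838074-69838373: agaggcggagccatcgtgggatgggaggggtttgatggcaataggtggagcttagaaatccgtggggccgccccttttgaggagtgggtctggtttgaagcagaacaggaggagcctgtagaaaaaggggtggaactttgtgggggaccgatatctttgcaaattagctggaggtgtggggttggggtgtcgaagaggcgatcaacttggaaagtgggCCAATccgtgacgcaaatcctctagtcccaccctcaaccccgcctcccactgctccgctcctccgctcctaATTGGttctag

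Ccdc115-Imp4, chr1:34439673-34439850: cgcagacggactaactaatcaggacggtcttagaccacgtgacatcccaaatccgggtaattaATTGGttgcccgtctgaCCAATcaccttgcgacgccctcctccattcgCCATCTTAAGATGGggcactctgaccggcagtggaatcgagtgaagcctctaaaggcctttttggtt

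Hnrnpa2b1-Cbx3, chr6:51470060-51470359: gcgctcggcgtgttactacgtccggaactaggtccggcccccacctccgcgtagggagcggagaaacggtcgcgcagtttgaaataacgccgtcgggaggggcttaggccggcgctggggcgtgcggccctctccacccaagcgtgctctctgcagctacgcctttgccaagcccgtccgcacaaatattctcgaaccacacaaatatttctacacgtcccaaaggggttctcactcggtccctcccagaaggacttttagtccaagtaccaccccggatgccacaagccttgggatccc

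Wrap53-Trp53, chr11:69580256-69580358: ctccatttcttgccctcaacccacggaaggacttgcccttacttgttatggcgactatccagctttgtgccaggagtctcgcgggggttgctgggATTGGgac

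Mrps12-Sars2, chr7:28741821-28741991: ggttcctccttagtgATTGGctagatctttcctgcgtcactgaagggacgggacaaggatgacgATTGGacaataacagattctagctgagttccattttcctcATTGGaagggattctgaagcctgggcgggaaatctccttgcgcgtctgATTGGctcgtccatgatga

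Tsc2-Nthl1, chr17:24632631-24632679: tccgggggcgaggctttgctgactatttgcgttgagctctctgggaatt

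The NFY letters are the most frequent capitals in this set. Mrps12-Sars2 holds 4 of them and Zranb3-R3hdm1 holds 3, always as ATTGG, the reverse complement of CCAAT. In these stretches ETS letters occur once, at Ccdc47-Ddx42, and the NRF1 letters once, at Usp5-Cdca3. None of the 4 motifs is present in the stretches of 3 of the 12 strongest (Lamtor2-Ubqln4, Hdlbp-Sept2 and Hnrnpa2b1-Cbx3), nor in that of Tsc2-Nthl1. The stretches of Lamtor2-Ubqln4 and Hnrnpa2b1-Cbx3 are only part of the interval between the starts.

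Most divergent pairs carried a Foxr2 site. One was present at 609 of 755 pairs (80.7%), against 6972 of 20449 one-gene promoters (34.1%), defined as protein-coding starts in no divergent pair, and 37.3% of all protein-coding starts. Both replicates gave this order on their own. Replicate 1 had a filtered peak at 83.2% of pairs and 36.6% of one-gene promoters, and replicate 2 at 86.2% and 38.3%, so that the classes differed by far more than the replicates did. Counting every deposited peak, 92.3% of pairs had one in replicate 1 and 93.2% in replicate 2, against 47.6% and 48.7% of one-gene promoters. The control line had a peak at 1 pair in replicate 1 (0.132%) and at 0 pairs in replicate 2, beside 0.112% and 0.0880% of one-gene promoters. Its lists held only 308 and 124 peaks, against 31909 and 38580 in the Foxr2_p53LOF line, so the low count is not particular to pairs. With 2 libraries a group no exact permutation test can give a two-sided p under 0.333, and the members were chosen on the same peaks, so these shares are a description without a test.

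One-gene promoters with a divergent start of a noncoding gene took a middle place. Of 772 such promoters, 62.4% had a site, against 33.0% of the 19677 others. Median GC content in the 300 bp around the start was 65.7% and 57.0%, respectively. Pairs left out of the definition because their annotated starts overlap were occupied as often as the members' class, at 363 of 456 (79.6%).

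Divergent pairs are richer in GC than one-gene promoters, and 56.4% of them fell in the upper 2 of 5 quintiles of GC content against 40.2% of one-gene promoters. Pairs stood above one-gene promoters in every GC quintile, by 63.9 percentage points in the lowest and 23.8 in the highest. In the lowest GC quintile, under 47.3%, 30 of 43 pairs (69.8%) and 5.90% of one-gene promoters had a site. Going up the other quintiles, pairs stood at 71.4%, 81.2%, 84.9% and 82.1%, and one-gene promoters at 14.5%, 36.3%, 55.6% and 58.4%. Occupancy of pairs thus moved little with GC, whereas that of one-gene promoters rose steeply. Weighted to the GC of the pairs, 43.0% of one-gene promoters had a site.

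CpG content, measured as observed over expected CpG, separated pairs with a site from those without more than GC did. Only 2 of 13 pairs in the lowest quintile of this ratio had a site (15.4%), against 2.32% of one-gene promoters. In the quintiles above it the share of pairs was 34.2%, 74.0%, 81.8% and 90.7% in rising order. One-gene promoters stood below the pairs in every quintile at the minimum fold of 6, with 8.56%, 33.3%, 60.5% and 69.7% in the same order. Weighting one-gene promoters to the CpG quintiles of the pairs gave 56.1%, which leaves 24.5 of the 46.6 percentage points of difference. Expression of the genes was not used here, and its part in the difference was not tested.

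**Figure D1:**
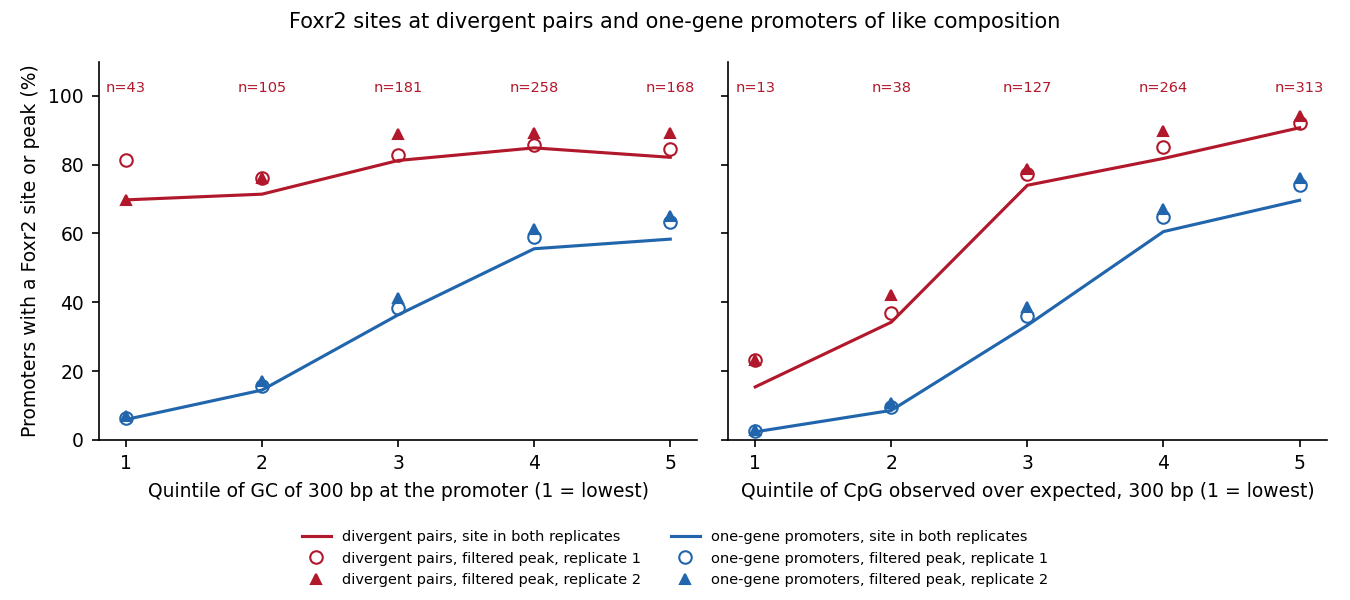
Share of divergent pairs (red) and one-gene promoters (blue) with a Foxr2 site (lines, %) or a filtered peak in replicate 1 (open circles) or replicate 2 (triangles), by quintile of GC content (left) and of observed over expected CpG (right) in 300 bp, with the number of pairs above. Pairs lie above one-gene promoters in every quintile in both replicates, from 69.8% against 5.90% in the lowest GC quintile to 82.1% against 58.4% in the highest.

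Most of the 146 pairs without a site had a peak in at least one replicate. Peaks were present in both replicates at 73 of them, with one replicate above the fold minimum at 51 and neither at 22. Another 19 had a peak in a single replicate only, 8 lay under a peak of 10 kb or more, 1 of which also reached a control peak, 1 other overlapped a control peak and 45 had no peak in either replicate. Those 45 had a median observed over expected CpG of 0.407 (interquartile range 0.208 to 0.691) and a median GC of 56.0%, against 0.875 (0.754 to 1.01) and 63.0% at the 609 occupied pairs. Among them, picked after their values were seen, were Kirrel2-Nphs1 of the kidney filtration slit, Col4a4-Col4a3 of basement membrane collagen, Duox2-Duoxa2 of the thyroid oxidase, Smc1b-Ribc2 with the meiotic cohesin Smc1b, and Ifit1bl2-Ifit1 of the interferon response. The 45 also held the histone pairs Hist1h2bq-Hist1h2ao, Hist1h2ap-Hist1h2br and Hist1h2ba-Hist1h2aa and the zinc finger pair Zfp558-Mbd3l1. The share of tissue-restricted genes among the 45 was not counted.

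Fold enrichment, the number of fragments at the summit plus 1 over the background plus 1, chose the members and is given as a description. The peak lists give no read totals. The background recovered from them was 1.26 fragments in replicate 1 and 2.04 in replicate 2, and a fold above 6 takes at least 13 and 18 fragments. The median fold of members was 11.9 in replicate 1 (interquartile range 8.84 to 15.9) and 13.8 in replicate 2 (10.2 to 19.4), from a median of 26 and 41 fragments at the summit. The 6453 sites at one-gene promoters had medians of 10.2 and 11.5. The range over members was 6.19 to 70.7 in replicate 1 and 6.24 to 99.2 in replicate 2. A fold above 20 was reached by 14.6% and 24.1% of members, against 7.24% and 14.3% of one-gene promoter sites. Ranked by the lower of the 2 folds, 126 members (21.4%) fell in the top 10% of all sites, against 12.9% of one-gene promoter sites. The replicate folds of members had a Spearman correlation of 0.856 over 589 sites that share both libraries, and 78.8% were higher in replicate 2, by a median ratio of 1.18.

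The strongest member was the promoter of Cbx5, which encodes a heterochromatin protein of the HP1 family, and Hnrnpa1, which encodes a splicing regulator of the hnRNP family. It reached a fold of 70.7 with 159 fragments in replicate 1 and 99.2 with 301 fragments in replicate 2. The site spans chr15:103238758-103243808, and its summits lay 7 bp to the left and 3 bp to the right of the midpoint of starts 616 bp apart. Sites on chromosome 15 had median folds of 10.2 and 11.5, of which these values are 6.96 and 8.63 times.

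The related promoter of Hnrnpa2b1 and Cbx3, another hnRNP gene paired with another HP1 gene, was also among the 12 members of highest lower fold. Its folds were 34.9 and 40.1 over chr6:51466695-51473570, a length of 6876 bp where the longest member site has 6956 bp. Tsacc-Cct3 ranked second with folds of 60.5 and 73.9, and its plus-strand gene encodes a subunit of the cytosolic chaperonin. Usp5-Cdca3, a deubiquitinase gene paired with a cell cycle gene, had folds of 44.6 and 74.9.

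Brca1, the homologous recombination gene, and Nbr1, an autophagy receptor gene, shared a site with folds of 40.2 and 47.6 at chr11:101551230-101554021. Ccdc47-Ddx42, with an RNA helicase gene on its plus strand, had 40.2 and 59.1, and Zranb3-R3hdm1, with the annealing helicase Zranb3, had 40.2 and 58.5. Lamtor2-Ubqln4, with a subunit gene of the Ragulator complex at the lysosome, reached 39.3 and 59.1. The remaining 4 of the 12 were Fiz1-Gm44973 (38.0 and 44.4), Hdlbp-Sept2 (36.7 and 46.3, with 2 gene entries for Sept2 in the annotation), Nlgn2-Tmem256 (36.7 and 45.3) and Ccdc115-Imp4 (36.2 and 48.3). Every one of the 12 was higher in replicate 2 than in replicate 1.

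**Figure D2:**
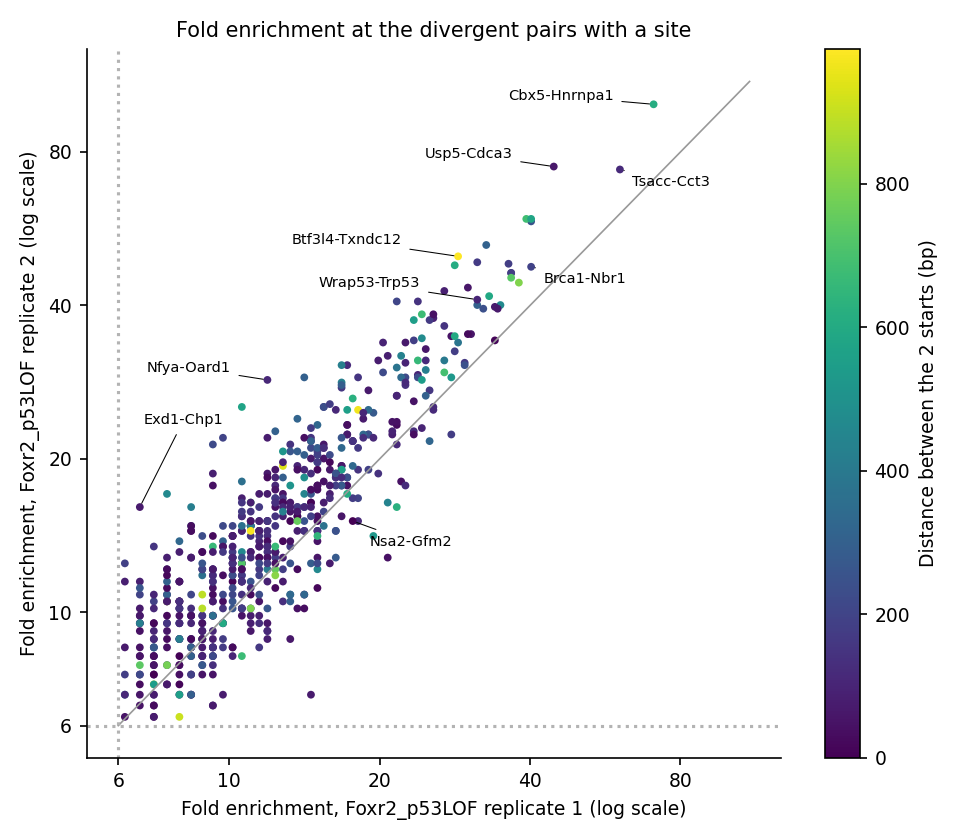
Fold enrichment in replicate 1 (horizontal, log scale) and replicate 2 (vertical, log scale) for the 609 pairs with a site, one point a pair, coloured by the distance between the starts in bp. The grey line marks equal folds and the dotted lines the minimum of 6. Most points lie above the line, and Cbx5-Hnrnpa1 stands highest at 70.7 and 99.2.

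Strong members were wider apart and poorer in GC than weak ones. Starts over 400 bp apart occurred in 6 of the 12 strongest members, against 64 of all 589 (10.9%). By tertiles of lower fold, such wide spacing was found in 8.12% of the weakest members, 8.16% of the middle ones and 16.3% of the strongest. Median GC in the 200 bp around the mean of the summits was 61.5%, 61.8% and 56.0% in these tertiles. Across members the Spearman correlation of fold with GC was −0.19 in replicate 1 and −0.26 in replicate 2, against −0.04 and −0.09 at one-gene promoter sites, all over sites that share their libraries. Member sites had a median length of 2013 bp (interquartile range 1557 to 2624), and one-gene promoter sites 1860 bp.

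Members just above the fold minimum held few fragments. The lowest fold in replicate 1, 6.19 from 13 fragments, was shared by 7 members. Among them Ppp1r3d-Fam217b was at the lowest value of replicate 2 as well, 6.24 from 18 fragments. Exoc2-Gm5447 had folds of 6.19 and 6.90, and Fbxl13-Armc10 had 6.19 and 7.56. Just outside, Mfap1a-Wdr76 had 6.19 and 5.91, Ndufa8-Morn5 had 7.07 and 5.91, and Slc25a27-Cyp39a1 had 6.63 and 5.91. Each of the 3 was a single fragment short in replicate 2, where passing takes 18.

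Replicates differed most at Exd1-Chp1, with folds of 6.63 and 16.1. Nfya-Oard1, whose minus-strand gene encodes the DNA-binding subunit A of NFY, followed with 11.9 and 28.6, and Rnf5-Agpat1 with 10.6 and 25.3. These are ratios of 2.43, 2.40 and 2.39, beside the median of 1.18.

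Foxr2 summits mostly lay outside the shared DNA between the starts. Of the 589 member summits, 81 (13.8%) lay between the starts in replicate 1 and 88 (14.9%) in replicate 2. The rest lay inside a gene, 42.6% and 43.1% on the side of the minus-strand gene and 43.6% and 41.9% on that of the plus-strand gene. Exons held 57.4% of summits in replicate 1 and 57.0% in replicate 2, and introns 28.9% and 28.0%. The median distance from the midpoint of the starts was 229 bp and 222 bp, and that from the nearer start 175 bp and 171 bp. As a whole the sites covered the promoter, and 563 of them (95.6%) reached over both starts.

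At narrow promoters few summits lay in the middle. Among the 417 members with starts at most 200 bp apart, 17 summits in replicate 1 (4.08%) and 16 in replicate 2 (3.84%) lay within 100 bp of the midpoint. By contrast, 314 (75.3%) and 330 (79.1%) lay 101 to 350 bp from it, in a mound on either side. Among the 172 members with wider spacing, 52 (30.2%) and 59 (34.3%) of the summits lay within 100 bp of the midpoint. In bins of spacing, 0.794% of summits fell between the starts in either replicate at 0 to 100 bp, 3.03% at 101 to 200 bp, 31.5% and 37.0% at 201 to 400 bp, and 62.5% and 64.1% at 401 to 1000 bp. The interval itself makes up more of the site as it widens, from a median share of 2.87% in the narrowest bin to 23.8% in the widest. The distance of the summit from the midpoint hardly moved over the first 3 bins, with medians of 230, 237 and 228 bp in replicate 1 and 221, 230 and 220 bp in replicate 2, and in the widest bin the medians were 148.5 and 146 bp.

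The side was mostly the same in both replicates. Their summits fell in the same place at 79.6% of members, with 201 both on the minus-strand side, 198 both on the plus-strand side and 70 both between the starts. They lay on opposite sides of the midpoint at 119 members (20.2%). The median distance between the summits of the 2 replicates was 61 bp at members and 84 bp at one-gene promoter sites. At one-gene promoters the summit was a median of 245 bp and 236 bp from the start, and 63.9% and 59.6% of summits were downstream of it.

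Single members show the range. The closest starts, those of Nsa2, a ribosome assembly gene, and Gfm2, a mitochondrial translation factor gene, share a base (0 bp apart). Folds there were 17.7 and 15.1, and the summits lay 191 bp on the plus-strand side in replicate 1 and 223 bp on the minus-strand side in replicate 2. At Tsacc-Cct3 both summits were on the minus-strand side, 326.5 and 292.5 bp from the midpoint. At Brca1-Nbr1 both were in an exon on the plus-strand side, at 382 and 397 bp. The widest pair, Btf3l4-Txndc12, had starts 987 bp apart, folds of 28.7 and 49.9 and both summits between the starts.

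**Figure D3:**
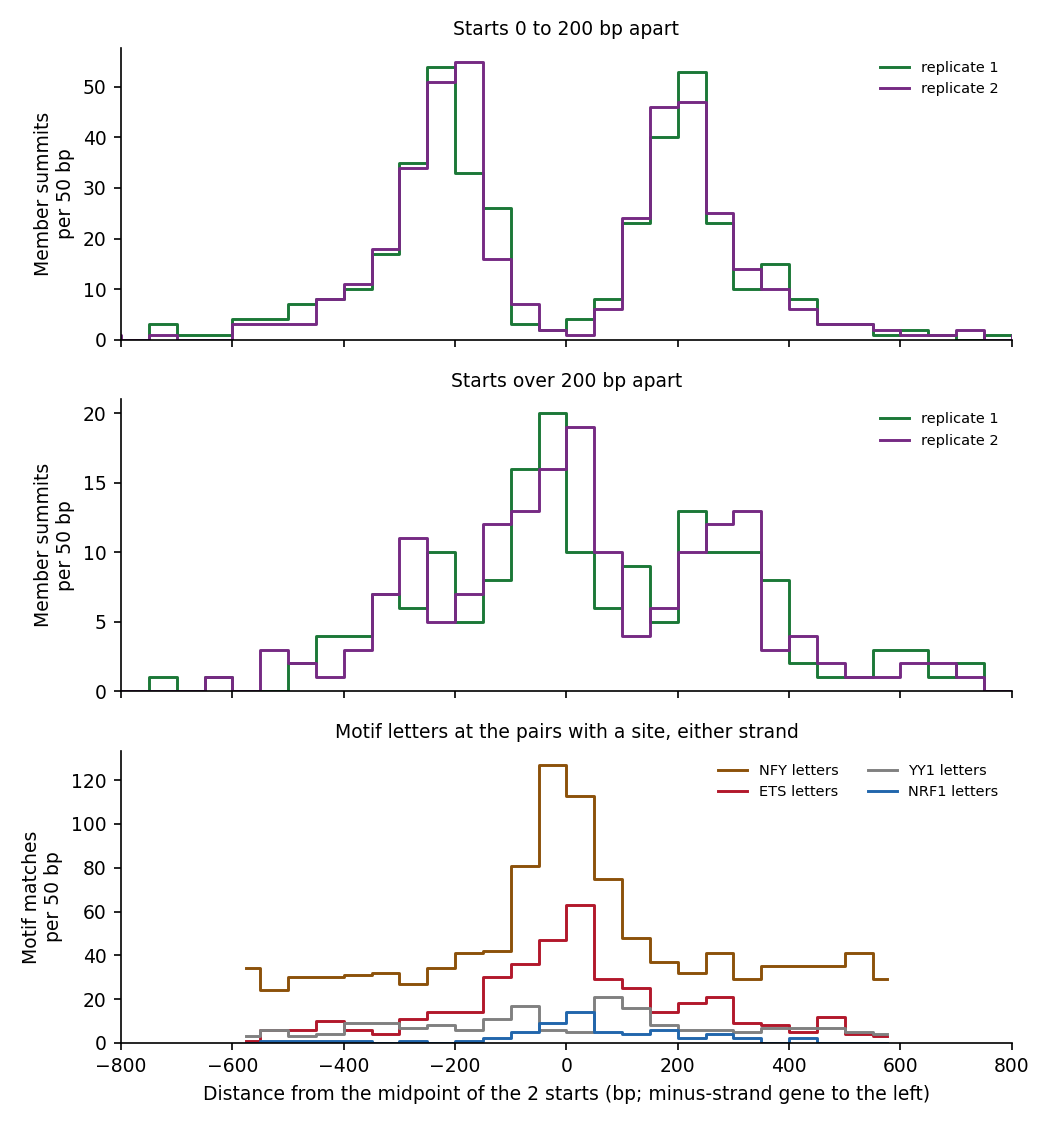
Number of member summits per 50 bp by distance from the midpoint of the 2 starts (bp) in replicate 1 (green) and replicate 2 (purple), for starts 0 to 200 bp apart (top, 417 members) and 201 to 1000 bp apart (middle, 172 members), and matches to 4 motifs at the 609 pairs with a site (bottom). At narrow pairs the summits form a mound on each side and 17 and 16 of them lie within 100 bp of the midpoint, where the NFY and ETS letters are most frequent.

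ETS and NFY letters were densest at the midpoint, where summits of narrow pairs were few. At the 609 occupied pairs, 175 ETS matches (CCGGAAG, both strands) lay within 100 bp of the midpoint and 160 in the larger stretch from 100 to 350 bp away on either side. For NFY (CCAAT) the counts were 396 and 363. YY1 letters (AAGATGG) were few at the midpoint itself, with 6 and 5 matches in the 50 bp to its left and right and 17 and 21 in the next 50 bp outwards. In the 200 bp centred on the midpoint, 22.7% of occupied pairs held the ETS letters, 37.9% the NFY letters, 4.93% the NRF1 letters and 7.06% the YY1 letters. The 146 pairs without a site held them in 19.9%, 41.1%, 2.74% and 4.79%. Over 200 bp centred on all protein-coding starts the shares were 9.58%, 28.1%, 1.87% and 4.90%, and over those of one-gene promoters with a site 16.9%, 29.8%, 3.38% and 6.58%. Between the starts themselves, the ETS letters were present at 96 of 590 occupied pairs with 20 bp or more between the starts (16.3%) and at 4 of the 45 pairs with no peak (8.89%). The E-box CACGTG was present at 62 occupied pairs (10.2%) and 5 pairs without a site (3.42%). The longer ETS letters CCGGAAGT went the other way in the 200 bp around the midpoint. They were present at 61 of the 609 occupied pairs (10.02%) and at 17 of the 146 pairs without a site (11.64%). The ETS letters were thus not higher at occupied pairs in both forms.

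ETS letters were rarer at the summits than at the midpoint. The 200 bp around the summit held the ETS letters in 6.96% of members in replicate 1 and 6.28% in replicate 2, and in 5.33% and 5.55% of one-gene promoter sites. The NFY letters were there in 17.5% and 16.8% of members. The forkhead letters GTAAACA went the other way, with 0.985% of occupied pairs at the midpoint (6 of 609) and 2.21% and 2.04% of members at the summits. The mean of the 2 summits falls towards the middle where the replicate summits are on opposite sides. In the 200 bp around it, the ETS letters were in 10.2% of members (60 of 589) and 7.76% of one-gene promoter sites. By rising tertiles of GC in this window, they were in 6.84%, 8.87% and 14.8% of members. One-gene promoter sites in the same GC ranges held them in 4.17%, 9.57% and 8.68%, so the order turned in the middle tertile. In this last window, the NFY letters were in 18.8% of members, TATAAA in 2.38%, the forkhead letters in 2.04% and the SOX letters CCATTGT in 0.340%, beside 18.3%, 3.13%, 1.38% and 1.52% of one-gene promoter sites. A match to letters is not a bound site.

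Members with the ETS letters did not have higher folds than those without. ETS matches were counted here in the 200 bp around the mean of the 2 summits, not around either summit. With 0, 1 and 2 or more matches, median folds were 11.9, 11.5 and 9.28 in replicate 1 and 13.8, 12.5 and 11.5 in replicate 2, over 529, 51 and 9 members. At one-gene promoter sites the medians were 10.2, 9.72 and 10.2 in replicate 1 and 11.5, 11.5 and 11.8 in replicate 2, over 5952, 452 and 49 sites.

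A set of 20 divergent pairs well known from textbooks was looked up by name. In GENCODE M21, 11 of them meet the definition used here and all 11 had a site, and 9 have overlapping annotated starts, of which 8 had a site. Pairs of genome maintenance genes were found at both ends of the scale. Wrap53-Trp53, whose plus-strand gene encodes p53 and is the target of the guide RNA in this line, had folds of 31.4 with 70 fragments and 41.1 with 124 fragments at chr11:69578263-69582830. Toe1-Mutyh, with a glycosylase gene of base excision repair, had 13.7 and 14.5. Tsc2-Nthl1, with another glycosylase gene, had 8.84 and 9.53. Atm-Npat, the DNA damage kinase gene paired with a histone gene activator, had 7.51 and 11.5. Mcm4-Prkdc, a replicative helicase gene paired with the kinase gene of end joining, had 7.51 and 17.1, a ratio above that of most members.

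Of the other pairs, Pdcd10-Serpini1 had folds of 27.0 and 29.6, and Mrps12-Sars2, which serves mitochondrial translation with both its genes, had 14.6 and 23.0. Among those with overlapping starts, Hspd1-Hspe1, the mitochondrial chaperonin pair, had 23.9 and 25.0, and Ppat-Paics of purine synthesis had 23.4 and 26.9. Fen1-Tmem258 (13.7 and 21.0), Sirt3-Psmd13 (15.0 and 11.5), Surf1-Surf2 (13.3 and 9.86), Hars-Hars2 (7.51 and 11.8) and Psmb9-Tap1 (6.63 and 8.21) followed. Col4a1-Col4a2, the pair of the main basement membrane collagens, had a single peak of 5.30 in replicate 1 and none in replicate 2.

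**Figure D4:**
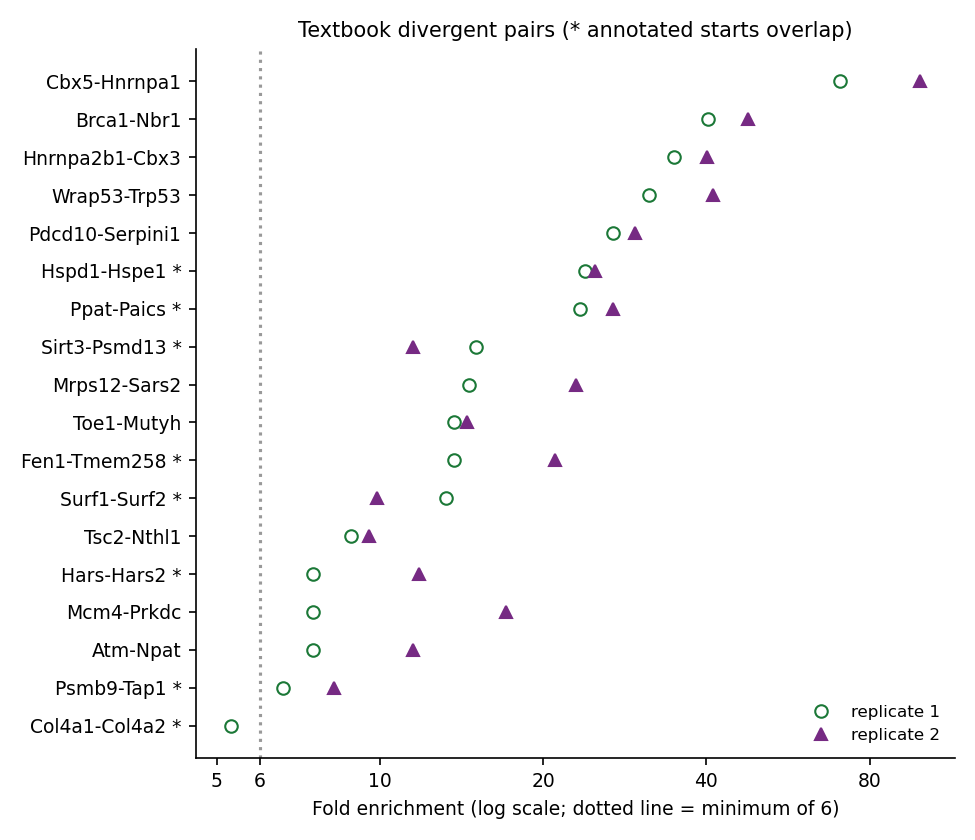
Fold enrichment (log scale) of 18 of the 20 textbook pairs in replicate 1 (open circles) and replicate 2 (triangles), where asterisks mark pairs with overlapping annotated starts and the dotted line the minimum of 6. Among the pairs that meet the definition the lowest value is 7.51 in replicate 1, at Atm-Npat and Mcm4-Prkdc, and 9.53 in replicate 2, at Tsc2-Nthl1, and the highest are 70.7 and 99.2 at Cbx5-Hnrnpa1. Col4a1-Col4a2 lies under the line.

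Divergent pairs were also sorted by 11 gene lists, where a pair counts if either gene is on the list. The pairs named as strongest or highest in a list are those with the highest lower fold of the 2 replicates. In 10 of the lists the share of pairs with a site was above that of the list's one-gene promoters, as it was over all genes (80.7% and 34.1%), and nothing particular to a list is read from this. DNA repair genes lay in 31 pairs, of which 29 had a site, against 73.9% of the one-gene promoters of the list, with Brca1-Nbr1 and Aimp2-Pms2 (25.6 and 25.0) strongest. DNA replication genes had a site at 8 of 9 pairs against 84.6%, led by Pxmp2-Pole (11.5 and 13.5) with the catalytic subunit of a leading-strand polymerase, and Pole3-4933430I17Rik (9.72 and 13.8), by the lower fold, while in replicate 2 Mcm4-Prkdc was higher than both. At a minimum fold of 10 the order turned, with a site at 1 of 9 pairs against 33.3%. Splicing and hnRNP genes had one at all 18 pairs against 82.5%, led by the 2 HP1 and hnRNP pairs above.

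Genes of protein synthesis and turnover were similar. All 5 pairs with an aminoacyl tRNA synthetase had a site (93.9% of one-gene promoters), with S100pbp-Yars (23.4 and 22.3) and Mrps12-Sars2 highest, and at a minimum fold of 10 the order turned here too, with 3 of 5 against 69.7%. Among 8 proteasome pairs 7 had one (63.4%), with Ftsj3-Psmc5 (34.02 and 39.75) and Psme2-Rnf31 (28.3 and 34.8) highest. Chaperone genes had one at 13 of 15 pairs (67.6%), with Tsacc-Cct3 followed by Hsp90b1-Ttc41 (24.7 and 26.6).

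Mitochondrial ribosomal protein genes had a site at 17 of 18 pairs, against 75.0% of one-gene promoters, with Mrpl54-Apba3 (30.0 and 35.2) and Mrps18b-Ppp1r10 (25.6 and 38.4) highest. Respiratory chain genes had one at 22 of 24 pairs against 70.6%, with Uqcr10-Zmat5 (22.1 and 28.9) and Uqcrq-Gdf9 (19.0 and 19.1) highest, both with a small subunit of complex III.

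Zinc finger genes had a site at 17 of 22 pairs against 57.1%, with Zfp672-Sh3bp5l (28.7 and 33.8) and Zfp142-Bcs1l (22.1 and 18.1) highest. Genes of cilium transport and the transition zone had one at 6 of 9 pairs against 62.5%, with Ift80-Smc4 (25.2 and 37.5) and Tnfaip1-Ift20 (17.7 and 21.7) highest by the lower fold, while in replicate 2 Cramp1l-Ift140 (14.1 and 28.9) was above the latter. Replication-dependent histone genes had a site at 4 of 14 pairs against 37.5%, and this count rests on the length limit and on replicate 2. Peaks of 10 kb or more, which the limit removes, covered 7 of the 10 other histone pairs, and 3 had no peak. Without the limit, chosen as an alternative after seeing the data, 11 of 14 pairs (78.6%) and all 40 one-gene promoters of the list had a site. With the limit but without replicate 2, 10 of 14 pairs and 85.0% of one-gene promoters had one. By the lower fold the histone pairs ranked from Hist1h2bh-Hist1h3f (23.9 and 31.2) and Hist1h2ac-Hist1h2bc (16.3 and 18.7) to Bola1-Hist2h2ab and Hist2h2ac-Hist2h2be. The last named pairs share a single site (15.5 and 25.3), so that the 4 pairs rest on fewer sites. Histone genes have near-identical copies, and how reads were shared among them is not given in the sources used here.

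**Figure D5:**
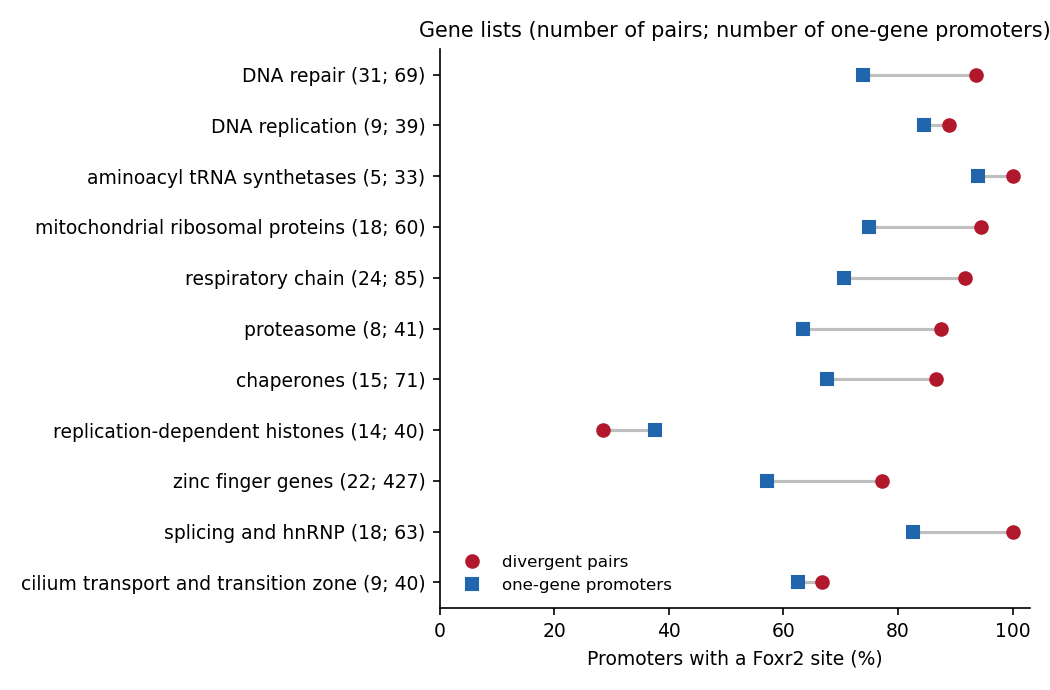
Share with a Foxr2 site (%) among the divergent pairs (red circles) and the one-gene promoters (blue squares) of 11 gene lists, with the number of each in brackets. The pairs lie to the right in 10 lists, and in the histone list, at 4 of 14 pairs, to the left of the one-gene promoters at 37.5%, where without the length limit it is 11 of 14 pairs and 40 of 40 one-gene promoters.

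Occupancy also varied by chromosome. Pairs with a site were most frequent on chromosomes 6 (26 of 27) and 3 (25 of 26) and least on chromosome X (5 of 20), where 8.80% of one-gene promoters had one, followed by chromosome 19 (14 of 23). Of the 15 pairs on X without a site, 7 had no peak in either replicate. Median member folds were highest on chromosome 3, at 16.8 and 19.4, followed by chromosome 15, at 14.8 and 18.7, and chromosome 11, at 14.4 and 18.1. Over all sites the medians on these 3 chromosomes were 9.94 and 11.5, 10.2 and 11.5, and 10.6 and 12.5. Divided by the median of all sites on their own chromosome, members had a median of 1.25 in replicate 1 and 1.26 in replicate 2, and one-gene promoter sites of 1.05 and 1.06.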

How the data were processed

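CUT&RUN peak lists of 4 libraries were used, 2 of Foxr2_p53LOF and 2 of V5_control, grouped by the sample labels. The authors trimmed reads with Trimmomatic 0.39, aligned them to mm10 with BWA 0.7.17, removed duplicates with Picard 2.26.6 and called peaks library by library with MACS2 2.2.7.1. The deposited fold enrichment is a ratio to the background of the library. The authors also deposited −log10 p and q values and a score, which is the −log10 q times 10. No input library is named in the sources used here.

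The peak filter of the methods was applied, and sites were the bases shared by peaks of both replicates. The further step of the methods, an intersection with single-nucleus ATAC-seq peaks, was not applied here. The background of a library was the value between 0.3 and 4, on a grid of 0.0005, that best turned folds up to 30 into whole fragments (within 0.02) with Poisson p-values near the deposited ones, and counting error at a summit follows from these fragments. Starts are the 5′ ends of protein-coding genes in GENCODE M21. A one-gene promoter has a site where one lies within 1 kb of its start. Motifs were exact letters on both strands. GC and CpG of promoters were read in 300 bp, and GC around the summits and motifs in 200 bp. The 14 motifs, the gene lists, the 20 textbook pairs and the members themselves were chosen with earlier results of these data known. Named genes are those pairs, the 12 members of highest lower fold, the members nearest the minimum by lower fold (ties in alphabetical order, with Ppp1r3d-Fam217b added after its values were seen), the closest and widest starts, the largest replicate differences and the 2 strongest pairs of each list, and pairs with no peak were named after their values were seen, as were the CpG quintiles, the fold tertiles and the distance classes around the midpoint chosen. Some results for single pairs are not reported here. All results are descriptions without tests. The peak filter, the shared bases, the divergent pairs, the assignment of sites to pairs and the motif counts were tested on simulated data. Analyses used Python 3.11.15, NumPy 2.4.6, pandas 2.3.3, SciPy 1.17.1 and matplotlib 3.10.9.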

Additional observations from a re-analysis of the deposited data

How the results depend on the processing

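No overall share, difference, fold, position, ETS or length value reversed under the alternatives run for it. A minimum fold of 10 left 373 member sites, with sites at 51.0% of pairs and 16.4% of one-gene promoters (difference 34.6 points) and a median lower fold of 14.1 in place of 11.5. Counting starts that overlap gave 936 member sites. With any deposited peak of both replicates, 91.5% of pairs and 45.2% of one-gene promoters had one. A site over the fixed 300 bp was present at 32.8% of one-gene promoters. Against one-gene promoters without a divergent noncoding start the difference was 47.7 points. Weighting to the GC quintiles of the pairs gave 43.0% and a difference of 37.6 points. Alternatives chosen after seeing the data were weighting to CpG quintiles (56.1%, difference 24.5 points) and one-gene promoters in no overlapping pair (32.0%, difference 48.6 points). The centre of the site lay between the starts at 23.1% of members, where summits did at 14.3%.

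The share of members with the ETS letters depended most on the window. It was 14.4% around the centre of the site (5.66 points above one-gene promoter sites), 23.1% in 400 bp around the mean of the summits (5.18 points) and, chosen after seeing the data, 22.7% around the midpoint of the starts (5.74 points above starts of one-gene promoters with a site), beside 10.2% and 2.42 points as reported.

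Using the peaks of a single replicate gave 83.2% to 86.2% of pairs, 36.6% to 38.3% of one-gene promoters, differences of 46.6 to 47.9 points, ETS shares of 6.19% to 6.92%, ETS differences of 0.638 to 1.68 points and median lengths of 2163 to 2466.5 bp. At the same 589 members, a window around the summit of replicate 1 or of replicate 2 gave ETS shares of 6.96% and 6.28% and differences of 1.63 and 0.734 points. No paired analysis was possible because no result comes from a test between groups of samples, and the differences above are each taken within a library. Dropping the control filter (590 member sites) or the length limit (595) left the overall counts within 1.5 times.

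Gene lists, GC and CpG quintiles and chromosome X were recomputed after seeing the data. The histone list depended on the length limit, with a site at 11 of 14 pairs in place of 4 both without the limit and with any deposited peak, and pairs minus one-gene promoters at −21.4 points in place of −8.93. The difference was −3.93 points at a minimum fold of 10. Peaks of replicate 2 alone gave 4 histone pairs and −8.93 points, and those of replicate 1 alone 10 pairs and −13.6 points. Pairs were above one-gene promoters in 10 lists under these settings except the minimum fold of 10, which left 8. There the order turned for DNA replication (11.1% against 33.3%), aminoacyl tRNA synthetases (3 of 5 pairs against 69.7%) and the lowest CpG quintile (0 of 13 pairs against 0.947%). In the other quintiles and on chromosome X pairs were above one-gene promoters under each of these settings.

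Precision is limited by the fragments at a summit, with 13 in replicate 1 and 18 in replicate 2 at the minimum, and by 2 libraries of a single line, so that these values show the spread between these libraries only.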
